A study of Homo sapiens with 8 samples.

Results

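The cytosolic ribosomal protein genes on the autosomes were followed through DNA captured by 3 RNA oligos. The members are regions to which the authors gave an unmarked ribosomal protein gene name, meaning an RPL or RPS symbol, RPLP0, RPLP1, RPLP2 or RPSA, with pseudogenes and S6 kinases left out. There were 168 such regions among 327994 in the 6 lists, and they named 45 of the 77 autosomal ribosomal protein genes in the RefSeq table of GRCh38.p14. Of these genes, 46 encode large subunit and 31 small subunit proteins.

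DNA of H1 cells, an established human embryonic stem cell line, was stripped of RNA and sonicated to an average of 200 to 300 bp. For each oligo group, 6 to 7 µg of this naked DNA was mixed with 20 pmol of a biotinylated RNA oligo, labelled MEG3 TFR1, MEG3 TFR2 or GATA6-AS TFR1, for 1 h at 37 °C with 50 mM KCl and 5 mM MgCl2. The control group went through the same steps with no oligo, DNA bound to streptavidin beads was released with RNases, and each of the 4 groups gave 2 libraries from independent experiments. All 4 groups used DNA of the same untreated line, so the groups differ in the oligo alone as far as the labels say, and neither cells nor RNA levels were compared. The design states that the oligos were used to capture the DNA loci with which they form triplexes.

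For each oligo the authors deposited a list of captured regions, with more DNA in the oligo group than without oligo, and a list of control regions, with less. A region carries one log2 ratio of oligo over no oligo and no value per library, so library depth, the spread between libraries and the error of a ratio are unknown, and no comparison below has a test. The no-oligo libraries served all 3 comparisons. Values of different oligos at one site therefore share a denominator and are given side by side. Where 3 values stand in a row without labels, the first belongs to MEG3 TFR1, the next to MEG3 TFR2 and the last to GATA6-AS TFR1. Gene names in the text say where DNA lies and nothing about expression.

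Ribosomal proteins are the protein parts of the ribosome, assembled with ribosomal RNA in the nucleolus into a large and a small subunit that join on a messenger RNA. Their genes are scattered over the chromosomes, are transcribed at high rates in dividing cells such as stem cells, and often start at a cytosine inside a pyrimidine tract, the element that lets the mTOR pathway control translation of their messages. Introns of many of them carry small nucleolar RNAs, and reverse-transcribed copies of their messages have left numerous pseudogenes. MEG3 is an imprinted long noncoding RNA and GATA6-AS is transcribed opposite the gene of the transcription factor GATA6. In an RNA-DNA triplex, RNA lies in the major groove of DNA along a strand rich in purines, which is why runs of purines or pyrimidines are marked in the sequences below.

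The promoters that captured regions reached show what DNA was recovered at the starts of these genes. The 6 printed are those reached by the most oligos, with ties ordered by log2 ratio. Each runs from 250 bases before to 20 bases after the start, 270 bases on the gene's own strand, 5′ to 3′, from RefSeq GRCh38.p14. Capitals mark purine-only or pyrimidine-only runs of at least 10 bases.
RPL36: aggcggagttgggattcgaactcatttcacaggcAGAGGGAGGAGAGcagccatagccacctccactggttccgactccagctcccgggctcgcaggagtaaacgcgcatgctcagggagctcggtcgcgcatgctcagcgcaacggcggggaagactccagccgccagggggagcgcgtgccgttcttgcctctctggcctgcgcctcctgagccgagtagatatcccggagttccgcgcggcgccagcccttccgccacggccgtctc
RPS16: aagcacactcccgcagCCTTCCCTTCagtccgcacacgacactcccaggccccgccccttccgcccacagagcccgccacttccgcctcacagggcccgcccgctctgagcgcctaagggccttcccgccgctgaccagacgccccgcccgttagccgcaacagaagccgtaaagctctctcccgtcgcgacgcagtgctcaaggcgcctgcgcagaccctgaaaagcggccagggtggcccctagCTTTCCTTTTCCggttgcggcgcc
RPS28: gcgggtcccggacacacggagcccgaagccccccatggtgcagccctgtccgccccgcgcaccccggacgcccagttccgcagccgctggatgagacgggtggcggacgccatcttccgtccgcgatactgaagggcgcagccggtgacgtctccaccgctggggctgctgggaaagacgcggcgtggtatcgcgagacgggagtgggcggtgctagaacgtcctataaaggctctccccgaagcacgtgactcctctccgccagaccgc
RPL12: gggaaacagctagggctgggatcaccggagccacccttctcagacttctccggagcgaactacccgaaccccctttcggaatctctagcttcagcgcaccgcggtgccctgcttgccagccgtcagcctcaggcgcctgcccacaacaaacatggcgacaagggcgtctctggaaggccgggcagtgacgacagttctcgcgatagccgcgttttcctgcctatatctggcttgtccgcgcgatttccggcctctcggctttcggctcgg
RPL19: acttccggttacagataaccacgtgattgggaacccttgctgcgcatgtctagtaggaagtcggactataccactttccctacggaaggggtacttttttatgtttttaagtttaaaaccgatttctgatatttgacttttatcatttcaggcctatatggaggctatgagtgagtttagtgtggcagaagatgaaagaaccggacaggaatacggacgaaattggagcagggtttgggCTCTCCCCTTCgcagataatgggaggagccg
RPS12: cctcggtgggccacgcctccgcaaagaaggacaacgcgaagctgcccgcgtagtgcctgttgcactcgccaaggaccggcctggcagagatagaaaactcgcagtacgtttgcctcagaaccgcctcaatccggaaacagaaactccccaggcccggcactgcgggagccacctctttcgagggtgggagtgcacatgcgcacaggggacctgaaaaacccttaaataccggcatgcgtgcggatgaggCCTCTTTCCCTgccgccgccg

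RPL36, a large subunit gene, has its promoter at chr19:5690045-5690314 on the plus strand. A captured region of MEG3 TFR1 at chr19:5689901-5690250 had a log2 ratio of 1.38 and holds the 13-purine run at positions -216 to -204. The captured region of GATA6-AS TFR1, with a log2 ratio of 1.10, began at the very next base and ran to chr19:5691350, over the start itself. The 2 oligos thus divided this promoter without overlap. RPS16, a small subunit gene on the minus strand, has its promoter at chr19:39435930-39436199, and its longest run is the 12-pyrimidine run at positions -4 to 8, across the start. GATA6-AS TFR1 captured all of that promoter, with a log2 ratio of 1.11, in a region of 2100 bp, and MEG3 TFR2 captured the DNA at the start with a log2 ratio of 0.84. RPS28, at chr19:8321246-8321515 on the plus strand, has no run longer than 9 bases. GATA6-AS TFR1 covered its promoter with a log2 ratio of 1.05, and MEG3 TFR1 covered the upstream part with a log2 ratio of 0.76.

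The other 3 promoters were reached by GATA6-AS TFR1. At RPL12 (chr9:127451387-127451656, minus strand), which encodes a protein at the base of the ribosomal stalk, a region over the upstream part had a log2 ratio of 2.01 and another, just inside the gene and short of the start, 0.84. The longest run there has 9 bases. At RPL19 (chr17:39200033-39200302, plus strand) the region had a log2 ratio of 1.90 and shared 18 bp with the upstream end of the promoter. The 11-pyrimidine run of RPL19 at positions -11 to -1 lies outside that region. At RPS12 (chr6:132814319-132814588, plus strand), host of 3 small nucleolar RNAs, the region had a log2 ratio of 1.87 and holds the 11-pyrimidine run at positions -1 to 10. A captured promoter thus did not always hold a long run, and a run did not always lie in the captured piece.

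Promoters were counted over windows of 300 bp, from 250 bp before to 50 bp after the start, which the reference table gives for 60 of the 77 genes and for 15101 autosomal protein-coding genes. A gene with more than 1 window was counted once, when any of its windows was reached. MEG3 TFR1 captured DNA in a window of 5 of the 60 genes, or 8.33%, against 8.73% of all genes. These were RPS27, RPL6, RPL26, RPL36 and RPS28. MEG3 TFR2 reached 1 of the 60, RPS16, or 1.67% against 4.11%. GATA6-AS TFR1 reached 10, or 16.7% against 20.5%. With 60 genes, 1 gene is worth 1.67 points, and these shares lay near those of genes at large. With 1 kb on each side of the start, MEG3 TFR1 captured DNA at 12 of the 60 genes (20.0% against 23.2%), MEG3 TFR2 at 8 (13.3% against 14.9%) and GATA6-AS TFR1 at 25 (41.7% against 42.9%). No control region lay in a window of any of the 60 genes, where the shares of all genes were 0.252%, 0.272% and 0.709%. Within 1 kb of a start, control regions lay at 2, 1 and 1 of the 60 genes (3.33%, 1.67% and 1.67%, against 1.26%, 1.31% and 3.46%), namely at RPL3 and RPS3.

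The letters of the promoters differed from those of other genes. Both strands of a 300 bp window per gene were searched, and the motifs can overlap each other. For the 9 ribosomal protein genes with more than 1 window, the first was searched, which need not be the captured one. A purine or pyrimidine run of at least 10 bases was in 54 of the 60 ribosomal protein promoters, or 90.0%, and in 71.0% of all 15101. A run of at least 15 bases was in 19 of the 60, or 31.7%, against 19.7%. Among the 13 ribosomal protein genes with a captured window, 10 had a run of at least 10 bases in the window searched and 1 a run of at least 15. Of the 47 genes without a captured window, 44 had the shorter and 18 the longer run. The median longest run was 12 bases in the 13 and 13 bases in the 47. The same split was not made for all 15101 promoters, so it cannot be called particular to these genes. The tract CTTTCC, typical of these starts, was in 41.7% of ribosomal protein promoters and 26.5% of all, and CCGGAAG, a core bound by ETS factors, in 35.0% against 14.4%. The purine motif GAGGAG went the other way, with 33.3% against 39.7%, and TATAA was in 20.0% against 16.8%. The median GC content was 59.3% in the 60 promoters and 63.0% in all.

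Around the start, captured DNA had an uneven spread. GATA6-AS TFR1 regions peaked just inside these genes and all genes alike. The bin where the ribosomal protein genes were highest, 350 bp after the start, had 13 of the 60 covered, or 21.7%, against 12.9% of all genes, whose own peak was 13.7% at 450 bp. Over the first 1 kb after the start the mean coverage was 14.8% against 12.1%. MEG3 TFR1 lay mostly before the start. Up to 5 kb upstream it captured DNA at 24 of the 60 genes, 40.0% against 29.3%, and up to 5 kb downstream at 8, 13.3% against 30.7%. The 8 with downstream DNA were RPL18, RPL26, RPL6, RPS14, RPS15, RPS21, RPS26 and RPS27. With MEG3 TFR2 the counts were 15 upstream (25.0% against 21.8%) and 13 downstream (21.7% against 24.5%). With GATA6-AS TFR1 they were 25 upstream (41.7% against 41.0%) and 31 downstream (51.7% against 45.2%). A median ribosomal protein gene, at 5011 bp, is about as long as the downstream stretch.

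**Figure D1:**
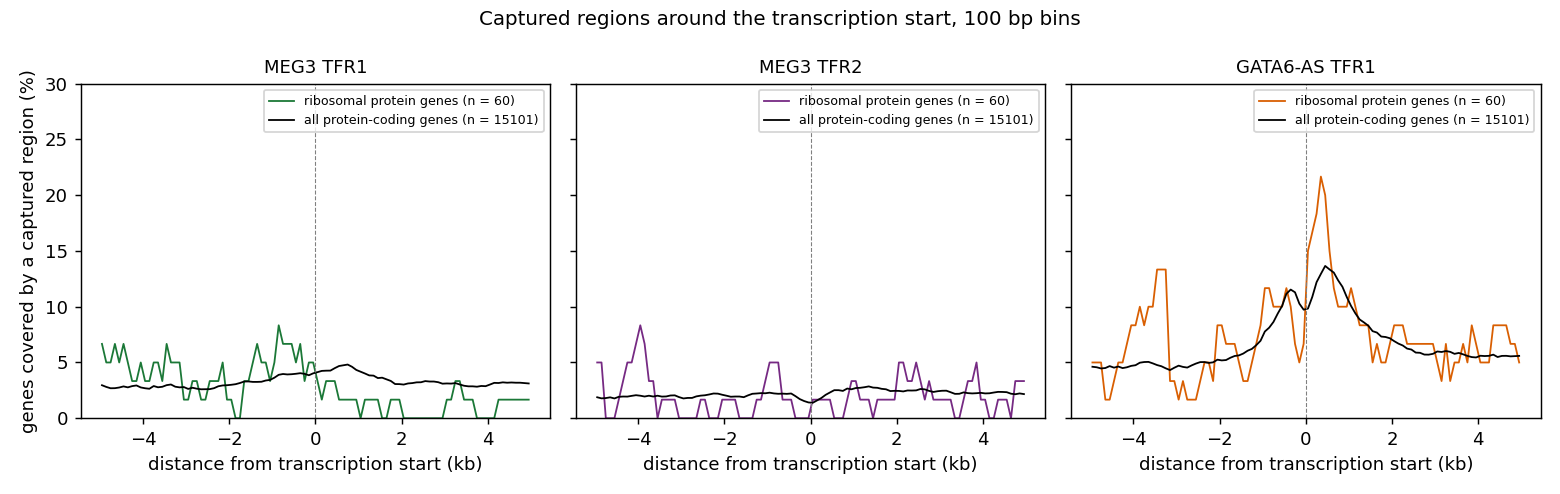
Share of genes (%) covered by a captured region in 100 bp bins from 5 kb before to 5 kb after the transcription start, for each oligo; coloured lines are the 60 ribosomal protein genes with a known start and black lines all 15101 genes. The GATA6-AS TFR1 line peaks at 21.7% at 350 bp after the start, and the MEG3 TFR1 line lies above the black line over most of the upstream side and below it over most of the downstream side; with 60 genes, 1 gene moves a line by 1.67 points.

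Over the whole gene, ribosomal protein genes are short, with a median length of 5011 bp (772 to 27723 bp) against 24476 bp for all 19126 autosomal protein-coding genes, so counts were also taken over genes of at most 10 kb. In that class the 66 ribosomal protein genes had a median length of 4443 bp and the 5328 protein-coding genes 4438 bp. By position in the RefSeq gene, MEG3 TFR1 captured DNA in 14 of the 77 genes, or 18.2%, against 62.6% of all genes. Among genes of at most 10 kb it was 10 of 66, 15.2% against 35.4%. MEG3 TFR2 captured DNA in 17 of the 77, 22.1% against 59.3%, and in 10 of the 66 short ones, 15.2% against 30.2%. GATA6-AS TFR1 captured DNA in 45 of the 77, 58.4% against 69.9%, and in 38 of the 66, 57.6% against 49.9%. In short genes, the MEG3 oligos thus reached a smaller share of ribosomal protein genes than of genes of like length, and GATA6-AS TFR1 a somewhat larger one.

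Counted as regions per 100 kb of genes of at most 10 kb, MEG3 TFR1 gave 3.15 in ribosomal protein genes and 11.7 in all genes, MEG3 TFR2 3.47 and 9.50, and GATA6-AS TFR1 16.7 and 23.2. In this length class all 3 densities were lower in ribosomal protein genes. Over all lengths the densities were 3.75 and 4.05, 4.74 and 3.35, and 13.6 and 5.33 in the same order, so those of MEG3 TFR2 and GATA6-AS TFR1 were then higher in ribosomal protein genes. Control regions in short genes were few: 1 of 66 (1.52% against 2.80%), 2 (3.03% against 2.61%) and 7 (10.6% against 7.30%). Over all lengths, control regions lay in 5 of the 77 (6.49% against 21.3%), 4 (5.19% against 19.4%) and 12 (15.6% against 40.0%).

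**Figure D2:**
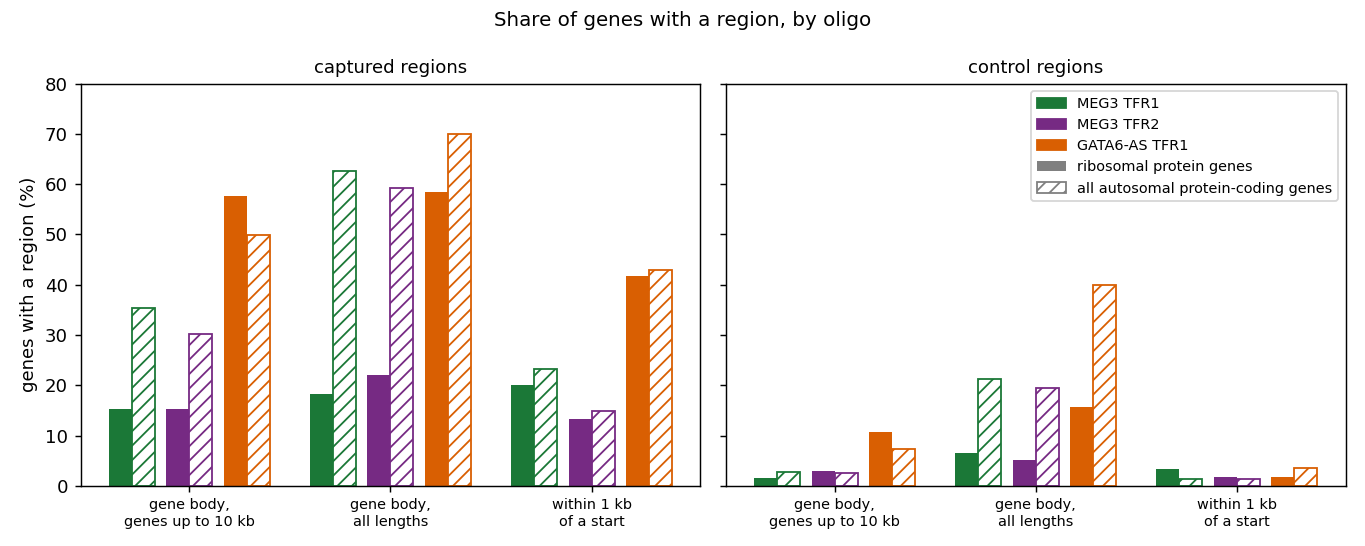
Share of genes (%) with a captured region (left) or control region (right) by oligo, for ribosomal protein genes (filled bars) and all autosomal protein-coding genes (hatched bars), over the gene body of genes up to 10 kb, the gene body at all lengths, and 1 kb to each side of a start. For gene bodies up to 10 kb the filled bars stand at 15.2%, 15.2% and 57.6% for captured DNA and the hatched bars at 35.4%, 30.2% and 49.9%.

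Captured DNA was found inside the RefSeq gene of 53 of the 77 genes for at least 1 oligo, 68.8% against 82.0% of all genes, and of 21 for at least 2 oligos, 27.3% against 65.1%. It was found for all 3 oligos in 2 genes, RPS3 and RPS24, or 2.60% against 44.7%. These shares are over all lengths, and no count matched for length was made for them. In all, 135 regions lay inside 57 of the genes, 112 of them captured. The captured ones had a median log2 ratio of 1.24 with MEG3 TFR1 (19 regions, 0.70 to 1.85), 1.28 with MEG3 TFR2 (24 regions, 0.68 to 2.16) and 1.18 with GATA6-AS TFR1 (69 regions, 0.53 to 2.62). The 20 genes without any region inside included RPL4, RPL7, RPL7A, RPL9, RPL10L, RPL14, RPL21, RPL24, RPL27, RPL27A, RPL32, RPL34, RPL35A, RPL37, RPL37A, RPL41, RPLP0, RPS9 and RPS13.

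Genes of both subunits were reached. Of the 46 large subunit genes, 7 had MEG3 TFR1 DNA inside (15.2%), 9 MEG3 TFR2 DNA (19.6%) and 23 GATA6-AS TFR1 DNA (50.0%), and of the 31 small subunit genes 7 (22.6%), 8 (25.8%) and 22 (71.0%). Of the 27 genes that host a small nucleolar RNA, 4 (14.8%), 5 (18.5%) and 18 (66.7%) were captured, and of the 50 that do not, 10 (20.0%), 12 (24.0%) and 27 (54.0%). The shares of all genes, at all lengths, were 62.6%, 59.3% and 69.9%. On chromosome 19, which holds 12 of the 77 genes, GATA6-AS TFR1 captured DNA in 11 of the 12, or 91.7% against 81.5% of all genes there, MEG3 TFR1 in 3 (25.0% against 70.9%) and MEG3 TFR2 in 3 (25.0% against 64.6%). On the other autosomes, 11 of the 65 genes held MEG3 TFR1 DNA (16.9% against 61.9%), 14 held MEG3 TFR2 DNA (21.5% against 58.9%) and 34 held GATA6-AS TFR1 DNA (52.3% against 69.0%). Lengths were not matched on chromosome 19 or on the other autosomes.

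**Figure D3:**
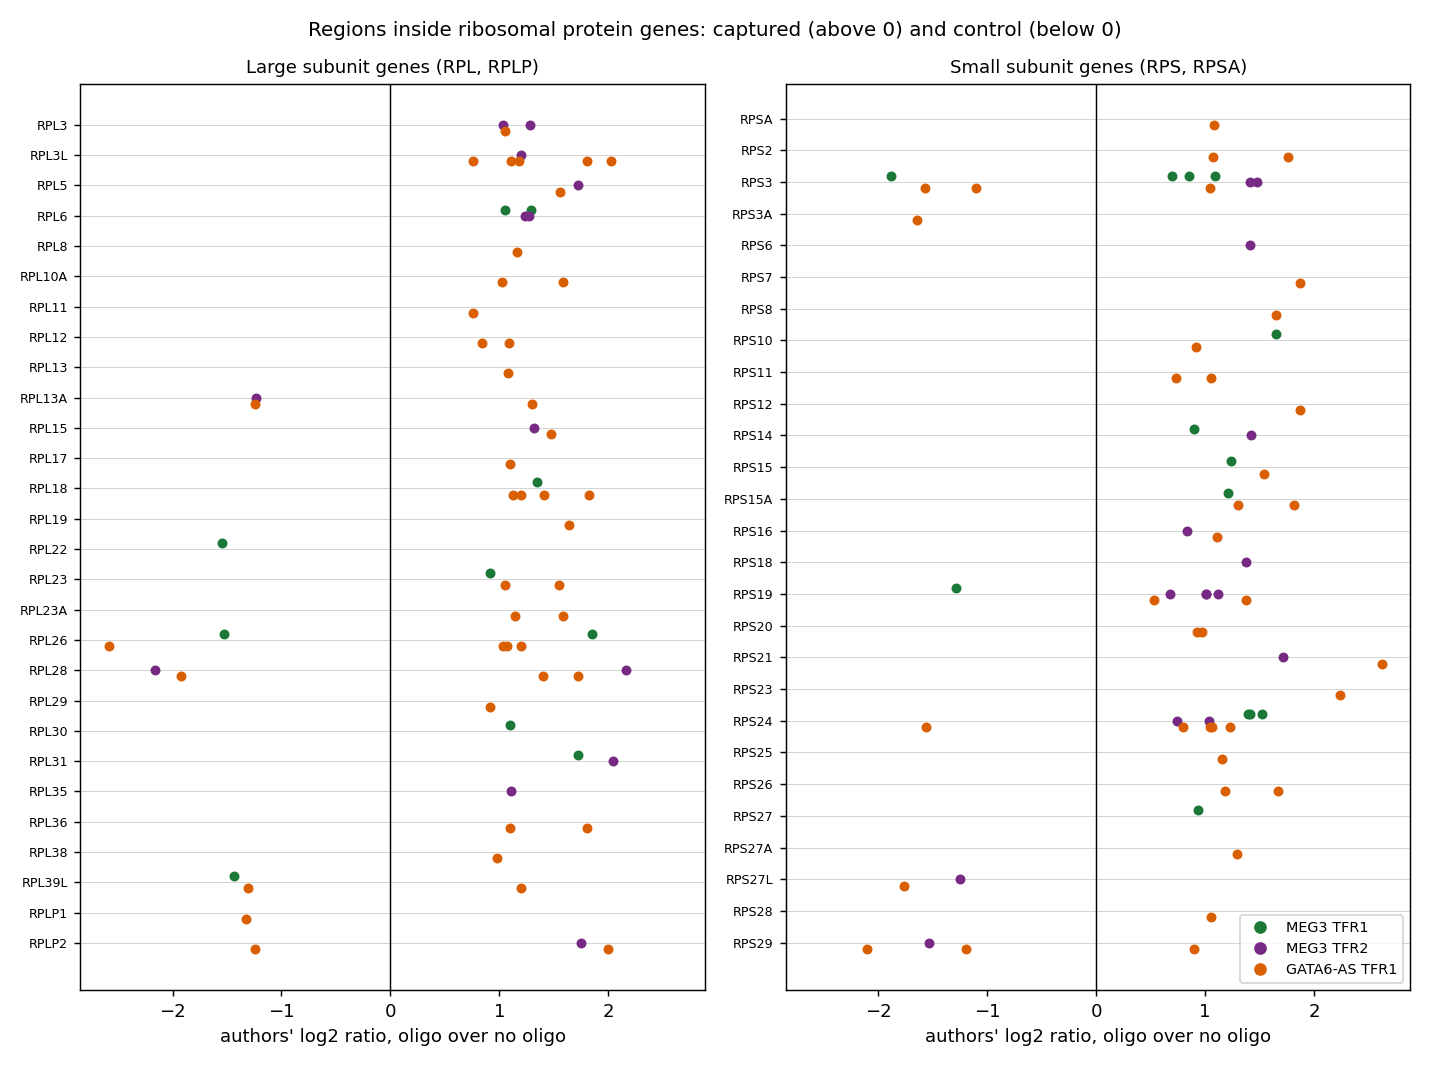
The authors' log2 ratio (oligo over no oligo) of each region inside a ribosomal protein gene, 1 point per region, coloured by oligo, with large subunit genes left and small subunit genes right; genes with no region inside, and some that are not reported here, are not drawn. Captured regions lie to the right of 0 and control regions to the left, GATA6-AS TFR1 has the most captured points, and the farthest to the right are RPS21 at 2.62 and RPS23 at 2.24, both GATA6-AS TFR1.

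RPS24, a small subunit gene mutated in some patients with Diamond-Blackfan anemia, a failure of red cell production, spans chr10:78033863-78056806. MEG3 TFR1 captured 3 pieces of it with log2 ratios of 1.52, 1.41 and 1.39. MEG3 TFR2 captured pieces with 1.04 and 0.74. GATA6-AS TFR1 captured pieces with 1.04, 1.23, 1.06 and 0.80, and also gave a control region with -1.56 at chr10:78041151-78041450. Near chr10:78041501-78042250, regions of all 3 oligos overlapped one another (1.52, 1.04 and 1.23), and they began just after that control region.

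RPS3 encodes a protein at the entry of the messenger RNA channel that also has a role in DNA repair, and it hosts 2 small nucleolar RNAs. It spans chr11:75399518-75422302. MEG3 TFR1 captured 3 pieces with log2 ratios of 0.85, 1.09 and 0.70, MEG3 TFR2 captured 2 with 1.41 and 1.47, and GATA6-AS TFR1 captured 1 with 1.04. The last began at the same base, 75417851, as the MEG3 TFR2 piece with 1.41. Near the low-coordinate end of the gene, at 75400051, MEG3 TFR1 and GATA6-AS TFR1 both had a control region, with -1.89 and -1.57, and GATA6-AS TFR1 had another with -1.11. RPS3 and RPS24 are among the longest genes of the group, at 22785 and 22944 bp.

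The ratios of the large subunit genes were led by RPL28, RPL31, RPL3L and RPLP2. RPL28 had a captured MEG3 TFR2 region with a log2 ratio of 2.16, inside a wider GATA6-AS TFR1 region with 1.40. Another GATA6-AS TFR1 region in RPL28 had 1.72. RPL31 had 1 site, chr2:101011051-101011500, where the MEG3 TFR2 region had 2.04 and the MEG3 TFR1 region 1.72, and the site also lies in TBC1D8. RPL3L, the striated muscle paralog of RPL3, which binds near the peptidyl transferase centre, had 5 GATA6-AS TFR1 regions with 0.76, 2.02, 1.18, 1.81 and 1.11 and 1 MEG3 TFR2 region with 1.20. RPL26, which also binds p53 messenger RNA, had a MEG3 TFR1 region with 1.85 at its start, chr17:8383101-8383400. GATA6-AS TFR1 captured pieces of RPL26 with 1.03, 1.07 and 1.20. RPL5, which with RPL11 and 5S RNA binds MDM2, had a GATA6-AS TFR1 region with 1.55 and a MEG3 TFR2 region with 1.72. RPL11 had 1 region, of GATA6-AS TFR1, with 0.76. RPL15, another Diamond-Blackfan anemia gene, had a GATA6-AS TFR1 region with 1.47 and a MEG3 TFR2 region with 1.31, both from the same first base. RPLP2, which with RPLP1 forms the flexible stalk that recruits translation factors, had a GATA6-AS TFR1 region with 2.00 and a MEG3 TFR2 region with 1.75. RPLP1 had no captured region inside and RPLP0, the stalk's base, no region at all.

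Among small subunit genes the highest ratio was that of RPS21, a GATA6-AS TFR1 region with 2.62 at chr20:62387501-62388200 that enclosed a MEG3 TFR2 region with 1.71. RPS23, which lies at the decoding centre, had 2.24 for GATA6-AS TFR1. RPS7 and RPS12 had 1.87 each for that oligo. RPS19, the gene most often mutated in Diamond-Blackfan anemia, had 4 MEG3 TFR2 regions with 0.68, 1.01, 1.01 and 1.11 along chr19:41862301-41870050 and 2 GATA6-AS TFR1 regions with 1.37 and 0.53. A MEG3 TFR1 control region with -1.29 overlapped the first of the MEG3 TFR2 regions. RPS14, the gene whose loss underlies the anemia of the 5q- syndrome, had a MEG3 TFR1 region with 0.90 and, at a separate site, a MEG3 TFR2 region with 1.42. RPS6, the main target of the S6 kinases, had 1 region, of MEG3 TFR2, with 1.41.

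Of 19 genes linked to Diamond-Blackfan anemia, 7 held MEG3 TFR1 DNA (36.8%), 6 MEG3 TFR2 DNA (31.6%) and 13 GATA6-AS TFR1 DNA (68.4%), against 62.6%, 59.3% and 69.9% of all genes. The 51 remaining genes, outside this group, the stalk and the paralogs, gave 7 (13.7%), 9 (17.6%) and 29 (56.9%). Lengths were not matched, with medians of 5678 bp for the 19 genes and 4701 bp for the 51. Of the 4 paralogs with tissue-restricted or stress-linked roles, RPL3L, RPL10L, RPL39L and RPS27L, 0 held MEG3 TFR1 DNA, 1 held MEG3 TFR2 DNA (RPL3L) and 2 held GATA6-AS TFR1 DNA (RPL3L and RPL39L). These groups were drawn up with the values known, and their counts are descriptions.

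Some of the captured DNA inside the genes carries microRNA hairpins with long purine and pyrimidine arms, printed 5′ to 3′ from RefSeq GRCh38.p14 with runs of at least 10 bases in capitals.
MIR7111: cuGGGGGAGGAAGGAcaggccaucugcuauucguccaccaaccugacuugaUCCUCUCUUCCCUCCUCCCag
MIR6797: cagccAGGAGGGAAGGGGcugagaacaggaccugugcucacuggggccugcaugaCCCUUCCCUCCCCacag

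MIR7111 lies at chr6:35470508-35470579 in RPL10A, inside a GATA6-AS TFR1 region with a log2 ratio of 1.58. MIR6797 lies at chr19:41869627-41869698 in RPS19, inside the MEG3 TFR2 region with 1.11 and the GATA6-AS TFR1 region with 0.53. In both, the 5′ arm is rich in purines and the 3′ arm in pyrimidines. A hairpin without such a run, MIR6805 at chr19:55388181-55388242 in RPL28, lay in the GATA6-AS TFR1 region with 1.40. Hairpins outside the regions, and the captured share of hairpins at large, were not counted. These hairpins are therefore examples, and whether those with runs were captured more often was not tested.

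The names in the lists place this DNA differently from the positions. Of the 168 regions that carry a ribosomal protein name, 70 (41.7%) overlapped the named RefSeq gene, 15 lay within 1 kb of it, and 83 (49.4%) lay farther away, up to 74465 bp. For all autosomal protein-coding genes, 91.3% of the unmarked names overlapped the gene and 6.15% lay over 1 kb away. Conversely, of the 135 regions inside the 57 genes, 70 carried the gene's name and 65 did not (51.9% named, against 72.0% over all coding genes). RPS3, RPL18, RPL3L, RPS21 and RPS23 had captured DNA inside and none of it under their own name. In all, 17 genes had a region inside while no region of any list carried their unmarked name. Conversely, 5 genes, RPL7, RPL27A, RPL37A and RPS9 among them, were named but had no region inside.

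Counts by name depended on gene length. MEG3 TFR1 captured regions named 16 of the 77 genes, 20.8% against 43.8% of all genes, in 31 regions. MEG3 TFR2 named 11, 14.3% against 42.1%, in 29 regions. GATA6-AS TFR1 named 34, 44.2% against 50.5%, in 77 regions. Among genes of at most 10 kb, MEG3 TFR1 named 11 of 66, 16.7% against 20.0%, MEG3 TFR2 named 7, 10.6% against 18.2%, and GATA6-AS TFR1 named 30, 45.5% against 28.7%. Control regions named 7 (9.09% against 19.1%), 7 (9.09% against 17.5%) and 9 (11.7% against 31.7%) of the 77 genes, and 5 (7.58% against 3.53%), 5 (7.58% against 3.49%) and 7 (10.6% against 6.87%) of the 66 short ones. By name, for GATA6-AS TFR1 captured DNA and all 3 control lists, the share was thus below that of genes at large over all lengths. Among short genes it was above, though the control counts there are few and some of the named DNA lay outside the gene. By position, control DNA lay inside 1, 2 and 7 of the 66 short genes. These were 1.52% against 2.80%, 3.03% against 2.61% and 10.6% against 7.30%, so for MEG3 TFR1 the order was reversed. Median log2 ratios of the named captured regions were 1.39, 1.34 and 1.33, beside 1.41, 1.44 and 1.34 for the whole lists, and of the named control regions -1.51, -1.39 and -1.65 beside -1.53, -1.46 and -1.57. The sizes of the ratios were thus close to those of each list as a whole.

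Captured regions were concentrated under a few names. RPL27A (21 regions), RPL37A (12), RPS9 (10), RPL39L (9) and RPL36 (9) held 61 of the 137 captured regions, or 44.5%. No like share was computed for other sets of genes. Captured regions of all 3 oligos carried the names of 3 genes, RPL27A, RPL37A and RPL39L, 3.90% against 24.3% of all genes, with lengths not matched. For these 3 genes the DNA lay mostly outside the gene.

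RPL27A, a large subunit gene at chr11:8682792-8689872, had all 21 named regions over 1 kb beyond its end, up to 24329 bp away, and those that lie in another gene lie in DENND2B. The region with the highest log2 ratio of any named one was here, 3.29 for MEG3 TFR2 at chr11:8693451-8693650, a 9.78-fold ratio. Its other MEG3 TFR2 regions ranged from 0.95 to 1.66. MEG3 TFR1 had 8 regions, led by 2.32, 2.19 and 2.06, and GATA6-AS TFR1 had 6, led by 2.40 at chr11:8704901-8705100. The MEG3 TFR1 region with 2.19 overlapped that GATA6-AS TFR1 region.

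RPL37A, a zinc-binding large subunit protein gene at chr2:216498844-216504086, had 12 captured and 7 control regions under its name, all over 1 kb away and some in uncharacterized noncoding genes. The captured log2 ratios ran from 0.93 to 1.81 in the 5 MEG3 TFR1 regions, from 1.14 to 1.79 in the 4 MEG3 TFR2 regions and from 1.12 to 1.41 in the 3 GATA6-AS TFR1 regions. RPL39L, a paralog of RPL39 expressed in male germ cells, lies at chr3:187120948-187139496. Of its 9 captured regions, 8 lay over 1 kb away, up to 40655 bp. The highest log2 ratio was 2.27 among its 2 GATA6-AS TFR1 regions and 2.21 among its 6 MEG3 TFR2 regions, and MEG3 TFR1 had 1 region with 1.5.

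RPS9, a small subunit gene at chr19:54200858-54207647, was named by GATA6-AS TFR1 regions alone, and 9 of the 10 lay over 1 kb away, in part in the leukocyte receptor genes LILRB3 and LILRA6. Only the name was limited to that oligo, since several of the 10 overlapped captured MEG3 regions without the unmarked name RPS9, and others did not. The region at chr19:54218301-54218700, with 1.33, overlapped a MEG3 TFR1 region with 1.55 and a MEG3 TFR2 region with 1.44. The log2 ratio at chr19:54245251-54245600, 2.76, was the highest of the named GATA6-AS TFR1 regions, and that at chr19:54219601-54220000 was 2.37. RPL36 had 6 of 9 captured regions over 1 kb away, in part in HSD11B1L, with 2.44 at chr19:5681251-5681600 and 2.39 at chr19:5686301-5687100. The highest MEG3 TFR1 ratio after RPL27A was 2.01 at chr15:63142351-63142600, named RPS27L after the p53-induced paralog of RPS27 and lying 5649 bp from it.

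**Figure D4:**
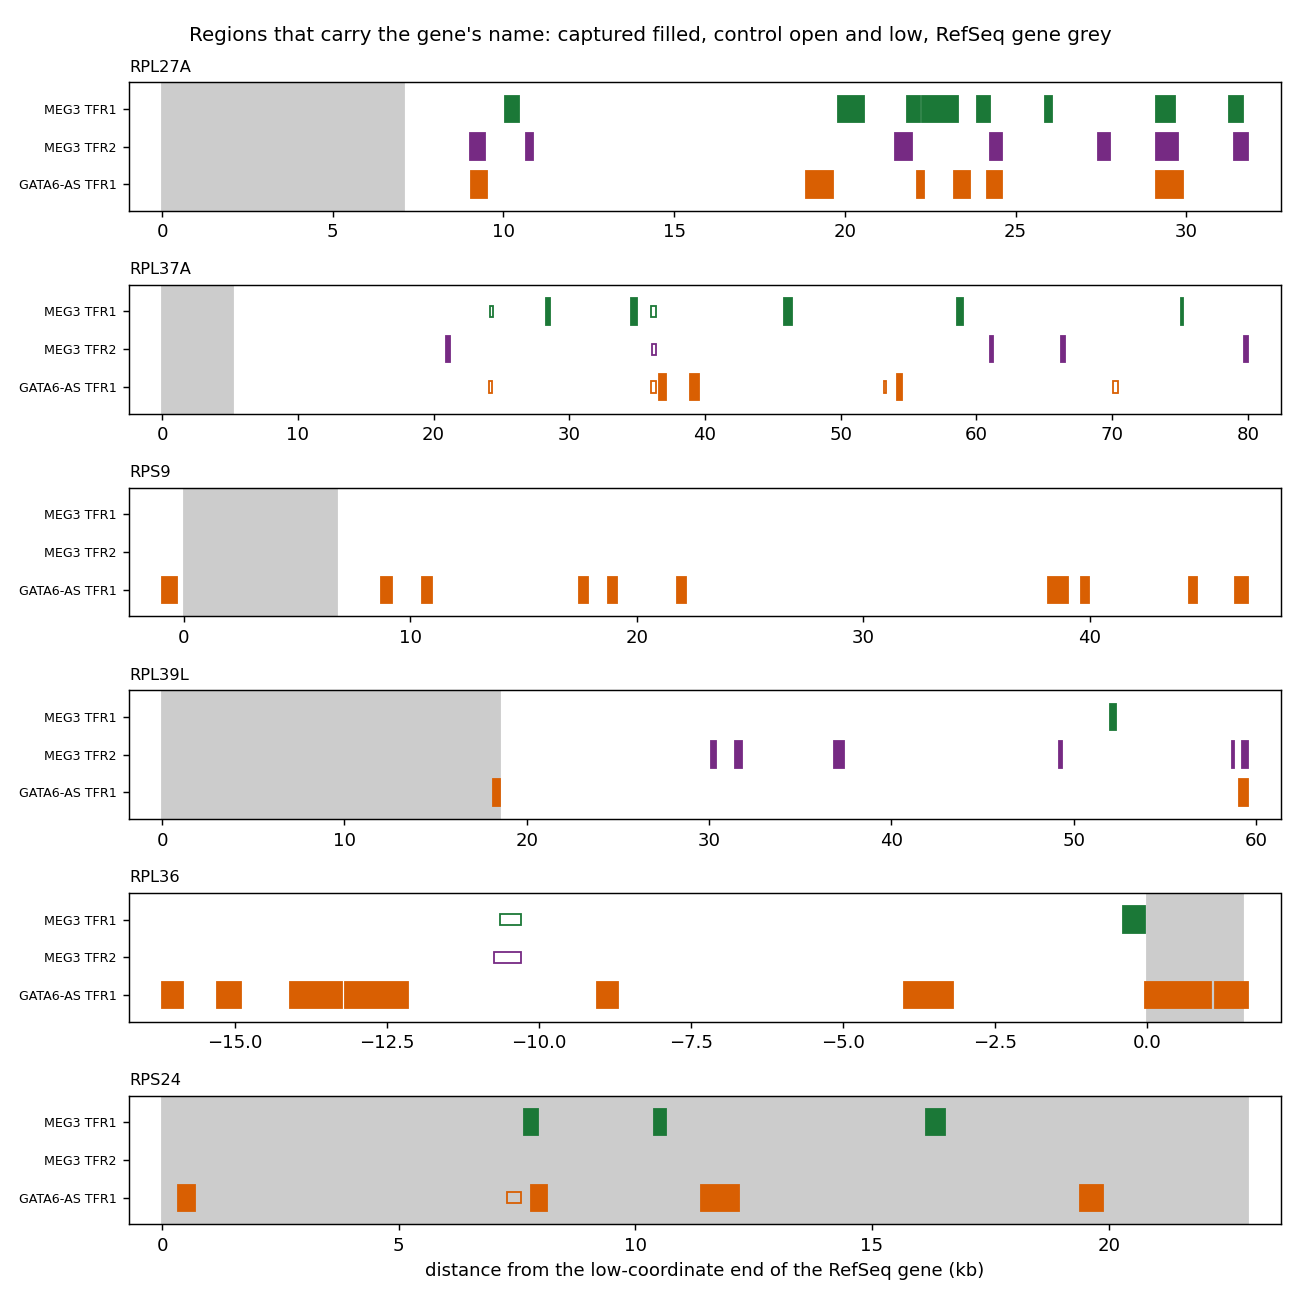
Regions that carry the name of the 6 genes with the most captured named regions, as distance in kb from the low-coordinate end of the RefSeq gene (grey), 1 row per oligo, with captured regions as tall filled boxes and control regions as low open boxes. All filled boxes of RPL27A and RPL37A lie outside the grey gene, as do 9 of 10 for RPS9 more than 1 kb away, while those of RPS24 lie inside it; RPS24 regions without its name are not drawn.

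The 31 control regions, where DNA was recovered less with the oligo than without, carried the names of 15 genes. RPL30 and RPL37A were named in all 3 control lists, 2.60% of the genes against 9.99%, and no gene of the 77 had control DNA of all 3 comparisons inside, against 13.1%. Lengths were not matched in either comparison. Under RPL30, on chromosome 8, the site at 98027151 had log2 ratios of -1.42, -2.74 and -2.97, and the next site, near 98030451, had -1.75, -1.13 and -1.70. Another GATA6-AS TFR1 region there had -1.13. All 7 lay over 1 kb from RPL30, in part in MATN2. Under RPL37A the site at chr2:216534851-216535250 had -1.34, -1.70 and -1.83. A further site had a GATA6-AS TFR1 region with -1.58 overlapping one of MEG3 TFR1 with -1.5, and GATA6-AS TFR1 had 2 more there, with -1.89 and -1.32.

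Several control sites inside genes were also listed for 2 oligos. RPL26 had a GATA6-AS TFR1 region with -2.58 and a MEG3 TFR1 region with -1.53 at one end of the gene, chr17:8377501-8377800. Its captured MEG3 TFR1 DNA lay at the other end, and captured GATA6-AS TFR1 regions with 1.03, 1.07 and 1.20 lay between. RPL28 had a MEG3 TFR2 region with -2.16 inside a GATA6-AS TFR1 region with -1.93 at chr19:55394851-55395150. RPL13A, which also acts outside the ribosome in silencing interferon-induced messages, had -1.24 for both MEG3 TFR2 and GATA6-AS TFR1. RPS29 had a MEG3 TFR2 region with -1.53 and RPS27L one with -1.25, and each overlapped a GATA6-AS TFR1 region listed under another name, with -2.10 and -1.76. A second control region of GATA6-AS TFR1 in RPS29 had -1.19. RPL39L held 1 control site under other names, with -1.44 in the MEG3 TFR1 list and -1.31 in that of GATA6-AS TFR1.

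Other control regions were listed for 1 oligo, except at RPL3 and RPL36. For MEG3 TFR1 they included RPL22, whose protein has a role in T cell development, with -1.54. For GATA6-AS TFR1 they included RPLP2 with -1.24 and, under other names, RPS3A with -1.65 and RPLP1 with -1.32. The MEG3 TFR1 control region named RPL3, with -0.86 at 328 bp from the gene, overlapped a MEG3 TFR2 control region with -1.7. Under the name RPL36, a site 10295 bp away in MICOS13 had a MEG3 TFR1 region with -1.51 and a MEG3 TFR2 region with -1.07. Of the 8 control regions named for MEG3 TFR2, 7 overlapped a GATA6-AS TFR1 control region, 87.5% against 80.9% of that list, and 4 overlapped one of MEG3 TFR1, 50.0% against 54.4%. Read from the longer GATA6-AS TFR1 list, 5 of 14 overlapped each MEG3 list, 35.7% against 26.4% with MEG3 TFR1 and 24.3% with MEG3 TFR2.

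Captured regions were compared in the same way. A captured region of another oligo overlapped 8 of the 31 named MEG3 TFR1 regions, 25.8% against 27.4% of that list, 13 of the 29 of MEG3 TFR2, 44.8% against 35.6%, and 23 of the 77 of GATA6-AS TFR1, 29.9% against 28.1%. When 1 kb on each side of the gene was allowed, captured DNA of all 3 oligos was at 9 genes, RPL3L, RPL7A, RPL15, RPL18, RPL36, RPLP2, RPS3, RPS16 and RPS24, 11.7% against 48.1% of all genes. The counts for single oligos were then 25, 27 and 52 of the 77, 32.5%, 35.1% and 67.5% against 66.0%, 62.5% and 73.9%. The shares of both MEG3 oligos were below those of all genes there too, but no flanked count, with 1 kb or 5 kb, was matched for length. Median lengths were 5011 bp and 24476 bp. Over windows of equal size, 1 kb on each side of a start, the MEG3 TFR1 shares were 20.0% against 23.2%. Those of MEG3 TFR2 were 13.3% against 14.9%. With 5 kb on each side they were 48, 44 and 64 of the 77, 62.3%, 57.1% and 83.1% against 74.0%, 70.7% and 79.4%, and captured DNA of all 3 oligos was at 29, 37.7% against 57.2%. Control regions were then at 11, 11 and 26, 14.3%, 14.3% and 33.8% against 25.9%, 24.1% and 49.0%.

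The 32 genes that no unmarked name gave included RPL3L, RPL4, RPL7A, RPL9, RPL10A, RPL10L, RPL11, RPL14, RPL17, RPL18, RPL21, RPL24, RPL27, RPL32, RPL34, RPL35A, RPL37, RPL38, RPL41, RPLP0, RPLP1, RPS2, RPS3A, RPS13, RPS14, RPS15, RPS20, RPS21, RPS23, RPS28 and RPSA. Of these, 17 had a region inside the RefSeq gene, RPSA, also the precursor of the laminin receptor, among them. RPL18 had 4 GATA6-AS TFR1 regions with log2 ratios of 1.12, 1.82, 1.41 and 1.19 and 1 MEG3 TFR1 region with 1.35, none under its name.

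Genes that work with the ribosomal proteins were counted by position in the same way. Among all genes the shares were 62.6%, 59.3% and 69.9%, at a median length of 24476 bp, and the lists were not matched to them for length. Of 77 autosomal genes of mitochondrial ribosomal proteins, with a median length of 8618 bp, 31 held MEG3 TFR1 DNA, 33 MEG3 TFR2 DNA and 41 GATA6-AS TFR1 DNA, or 40.3%, 42.9% and 53.2%. Of 37 ribosome biogenesis factors the counts were 22, 18 and 27 (59.5%, 48.6% and 73.0%). Of 28 initiation factors they were 16, 12 and 16 (57.1%, 42.9% and 57.1%). Of 11 elongation and termination factors they were 5, 6 and 7 (45.5%, 54.5% and 63.6%). Other genes whose messages start with a pyrimidine tract gave 9, 10 and 14 of 21 (42.9%, 47.6% and 66.7%). S6 kinases and further paralogs gave 8, 8 and 11 of 14 (57.1%, 57.1% and 78.6%). These genes are longer, with list medians from 8618 to 31214 bp, so the shares are not set against those of the 77 cytosolic genes. The highest captured log2 ratio inside these genes was 3.06 in EIF4G3 with MEG3 TFR1, 3.12 in RPS6KC1 with MEG3 TFR2 and 3.94 in UTP4, a processing factor of the small subunit, with GATA6-AS TFR1. Inside mitochondrial ribosomal protein genes it was 2.13 in MRPL1, 2.55 in MRPL11 and 2.49 in MRPL20.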

How the data were processed

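Each of the 6 deposited lists gives regions with 1 log2 ratio made by the authors, per the file contents and the labels. FastQC, BWA 0.7.15-r1140 and build hg38 are named, without their roles, in the submitters' processing notes. How regions were called and libraries scaled is not given in the sources used here. An input sample was not analysed here. The unit was found from the numbers: 2 raised to each of the 168 deposited log2 values gave a whole-number ratio (denominator up to 400, tolerance 1e-08), and e raised to them gave 0 such ratios.

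Names were split at colons, those ending in a plus or minus mark (their meaning is not given) were left out of the main counts, and RPS10L, a pseudogene in RefSeq, was left out. Some genes are counted but their values are not reported here. Positions, from 1, were compared with RefSeq genes of GRCh38.p14 (any overlap of 1 bp) in Python 3.11.15 with pandas 2.3.3 and numpy 2.4.6. On simulated lists 200 of 200 planted genes among 19126 were recovered. A gene was called when a region named or overlapped it. Since the lists hold 1 ratio per region, no test was made. Named with values were the 5 members with the largest ratio per list, members with captured DNA of all 3 oligos, with a control region, or with a promoter reached by 2 or more oligos. Regions inside genes under other names, and the role groups, were added after the values were seen. Members and lists were chosen with earlier results of these data known. Alternatives were the gene body with and without flanks, stricter ratios, overlaps and names, and marked names, the last chosen after seeing the data.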

Additional observations from a re-analysis of the deposited data

How the results depend on the processing

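No paired analysis was possible because the lists hold 1 ratio per region and no value per library; leaving out a replicate could not be computed for the same reason. Of 66 alternative values, 30 stayed within 1.5 times the main count or within the interval of the share, and 36 moved. In the order MEG3 TFR1, MEG3 TFR2, GATA6-AS TFR1, the main counts of genes named captured were 16, 11 and 34, and of genes named control 7, 7 and 9. Ratios of at least 1.5 in size left 8, 5 and 20 captured and 4 control for MEG3 TFR2. The 50% of regions with the largest ratios left 6 captured for MEG3 TFR2 and 4 control for each MEG3 oligo. Regions that name 1 gene gave 7 captured for MEG3 TFR2 and 3 control for MEG3 TFR1. The gene body gave 17 captured and 4 control for MEG3 TFR2. With 1 kb to each side, 25, 27 and 52 were captured, and with 5 kb 48, 44 and 64, with 11, 11 and 26 control. Marked names, added after seeing the data, gave 57, 46 and 67 captured and 13, 11 and 29 control. Genes with captured DNA of all 3 oligos, 3 by name, were 1 at ratios of at least 1.5, 9 with 1 kb, 29 with 5 kb and 41 with marked names. Promoters reached, 5, 1 and 10, were 3, 0 and 4 with an overlap of at least 150 bp and 1, 0 and 3 over the 50% of regions with the largest ratios. Which genes count as captured thus rests on the naming and the flank. For the stricter ratios, single names, marked names and stricter promoter settings, no share of all genes stands beside the counts. Those counts therefore show how the settings act and nothing particular to ribosomal protein genes. The error of each ratio, library depth and the caller's threshold are unknown, regions are 150 bp or wider, and pseudogene copies can share reads with these genes.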

Other observations

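Pseudogenes copied from ribosomal protein messages lay less often in captured DNA than pseudogenes at large. Of 1897 such pseudogenes, 36 were overlapped by a captured MEG3 TFR1 region, 29 by MEG3 TFR2 and 40 by GATA6-AS TFR1, or 1.90%, 1.53% and 2.11%, against 5.98%, 4.43% and 7.15% of 15727 pseudogenes of all kinds. Control regions overlapped 19, 18 and 45 of them, 1.00%, 0.949% and 2.37% against 1.36%, 1.23% and 3.32%. No length match was made, and no test.

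Names also parted from positions for genes outside the group. The highest ratio under the name of a translation initiation factor was 5.11, for MEG3 TFR1 under EIF2B5, at chr3:184568951-184569100, which is 423640 bp from that gene in RefSeq. The top MEG3 TFR2 and GATA6-AS TFR1 regions under the same name, with 3.66 and 2.95, lay 466140 and 174290 bp from it, and the last overlaps EIF4G1.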
